A study of Homo sapiens with 8 samples.

Results

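This account covers 50 genes of the endoplasmic reticulum (ER) that carry out or regulate secretion and the unfolded protein response, as measured by RNA-seq in HT29 cells with and without an shRNA against ALDH1A1. The genes were chosen by name, as stress sensors, chaperones and parts of the machinery that takes proteins into and out of the ER, and all 50 were present among the 18664 genes of the deposited table. HT29 is an established human colon cancer cell line, grown here with 10% serum. The 4 shALDH1A1 libraries came from cells with a stable lentiviral shRNA against ALDH1A1, and the sources used here do not say which of the human shRNAs it was. The 4 CTRL libraries are called shControl, WT and parental in different labels, so whether they carry a control shRNA cannot be told. Nothing in the labels says that replicates were separate cultures, so p-values measure the spread between these libraries only.

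Proteins that leave the cell enter the ER through the Sec61 channel, lose their signal peptide, receive sugar chains and are folded by chaperones before they leave in COPII-coated vesicles. When unfolded proteins pile up, the sensors IRE1 (gene ERN1), ATF6 and PERK (gene EIF2AK3) set off the unfolded protein response. IRE1 cuts a short intron out of XBP1 mRNA, and the spliced mRNA encodes the active transcription factor XBP1s, which is known to raise genes of translocation, folding and vesicle transport. PERK acts through the translation of ATF4, which raises DDIT3 (CHOP), and cleaved ATF6 raises chaperones such as HSPA5 (BiP). This set of genes is most active in cells that secrete much protein, such as plasma cells and the chief cells of the stomach.

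The XBP1 intron is shown because the 2 XBP1 transcripts of the table differ by it. It lies in exon 4 of XBP1, in GRCh37 at chr22:29192112-29192137 on the minus strand, and capitals mark the 26 bases present in the unspliced transcript only. The bases around the cuts repeat, so 7 placements of the 26 bases give the same spliced sequence, and the one shown has GCAG just before both cuts.
XBP1 intron: agCACTCAGACTACGTGCACCTCTGCAGca

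Promoters are shown because part of these genes shares a response element. The RefSeq promoter table (GRCh38.p14, 250 bases before to 50 bases after each start site) had an entry for 44 of the 50 genes. The ER stress response element (ERSE, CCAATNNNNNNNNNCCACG, searched on both strands) was found in 7 of the 44 genes, or 15.9%, against 0.0916% of the 27305 genes in that table. These were XBP1, HSPA5, HSP90B1, CALR, CANX, PDIA6 and CRELD2. ERSE-II (ATTGGNCCACG, both strands) was found in HYOU1, SDF2L1 and HERPUD1, or 6.82% of the 44 genes against 0.0696% of all genes. The sites below are written in the orientation of the motif, with the fixed bases in capitals.
XBP1 ERSE (chr22:28800603-28800621, 52 bases before the start site): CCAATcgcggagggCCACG
HSPA5 ERSE (chr9:125241391-125241409): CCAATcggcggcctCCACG
HSP90B1 ERSE (chr12:103930216-103930234): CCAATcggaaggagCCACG
PDIA6 ERSE (chr2:10812853-10812871): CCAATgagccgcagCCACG
CANX ERSE (chr5:179698778-179698796): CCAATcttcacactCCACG
HERPUD1 ERSE-II (chr16:56932025-56932035): ATTGGgCCACG
HYOU1 ERSE-II (chr11:119057274-119057284): ATTGGaCCACG

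HSP90B1 held 2 ERSE in its window, the second in the opposite orientation, and XBP1 held 1 at the first of its start sites. Both windows are given whole, 5′ to 3′ on the strand of the gene, with the ERSE bases in capitals.
XBP1 promoter (chr22:28800520-28800819, minus strand): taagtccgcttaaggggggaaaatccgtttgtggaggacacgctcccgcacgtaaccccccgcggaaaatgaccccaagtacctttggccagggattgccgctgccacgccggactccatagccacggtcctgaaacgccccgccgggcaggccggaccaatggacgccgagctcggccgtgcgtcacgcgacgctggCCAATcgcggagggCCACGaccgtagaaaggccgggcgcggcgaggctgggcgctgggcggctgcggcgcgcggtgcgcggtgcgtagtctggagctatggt
HSP90B1 promoter (chr12:103930160-103930459, plus strand): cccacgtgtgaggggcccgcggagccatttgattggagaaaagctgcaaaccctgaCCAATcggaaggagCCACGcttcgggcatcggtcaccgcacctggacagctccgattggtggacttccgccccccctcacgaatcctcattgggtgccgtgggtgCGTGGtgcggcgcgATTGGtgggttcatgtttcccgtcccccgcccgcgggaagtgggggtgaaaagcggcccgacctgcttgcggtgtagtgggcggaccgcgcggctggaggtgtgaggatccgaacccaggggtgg

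The core of the XBP1-bound UPRE (TGACGTGG, both strands) was found in HYOU1, SEC62, SSR3 and SSR4, or 9.09% of the 44 genes against 0.927% of all genes. None of the 44 genes' promoters held the CRE core (TGACGTCA), which 2.25% of all genes did. A match gives the letters only and is no evidence of binding.

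The libraries differed in ways that touch every result below. Each shALDH1A1 library held between 536575 and 1908803 counts, and each CTRL library between 291260 and 4137111, with CTRL replicate 2 the shallowest and CTRL replicate 3 the deepest. Genes with at least 10 counts numbered 2752 to 3963 per shALDH1A1 library, against 11929, 2814, 12857 and 9043 in CTRL libraries 1 to 4. MTRNR2L genes, which resemble mitochondrial ribosomal RNA, made up 0.00356 to 0.183% of counts in the shALDH1A1 group, against 14.6, 0.233, 9.34 and 50.4% in CTRL libraries 1 to 4. ALDH1A1 had 3, 1, 1 and 0 counts in shALDH1A1 libraries, against 1858, 83, 1870 and 1000 in CTRL libraries. Genes whose transcripts hold over 50 bases alignable to 7SL RNA, the RNA of the signal recognition particle from which Alu repeats derive, made up 81.7 to 87.6% of all counts in the shALDH1A1 group, against 25.3, 73.3, 16.2 and 14% in CTRL libraries 1 to 4. The 30 genes that every cell uses made up 0.0354 to 0.21% in the shALDH1A1 group and 1.39 to 6.11% in the CTRL group. The 10 colon epithelium markers were low in both groups, at 0.00257 to 0.0151% in the shALDH1A1 group and 0.013 to 0.122% in the CTRL group. Markers of stomach chief cells made up 0 to 0.00505% in the shALDH1A1 group and 3.2 to 36.2% in the CTRL group, with the 36.2% in CTRL replicate 3. Such levels of stomach markers are unexpected for HT29, a colon line, and the identity of the samples was not tested. Parietal cell markers made up 0 to 0.000373% in the shALDH1A1 group and 0.114 to 1.08% in the CTRL group, and stomach mucous cell markers 0.00158 to 0.0336% in the shALDH1A1 group and 0.0415 to 1.84% in the CTRL group. Plasma cell markers, 5 of 8 in the table, made up 0.00126 to 0.00298% in the shALDH1A1 group and 0.0549 to 0.178% in the CTRL group. Fibroblast markers made up 0.000629 to 0.0157% in the shALDH1A1 group and 0.0518 to 0.223% in the CTRL group, and smooth muscle markers 0.000157 to 0.0352% in the shALDH1A1 group and 0.0271 to 2.64% in the CTRL group. Leukocyte markers went the other way, with 0.0835 to 0.116% in the shALDH1A1 group and 0.0141 to 0.056% in the CTRL group. Endothelial markers stayed at or below 0.00242% in the shALDH1A1 group and 0.0138% in the CTRL group. The part of any of these differences in the results on the 50 genes was not tested, and in bulk RNA fewer cells of a type and less RNA per cell cannot be told apart.

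**Figure D1:**
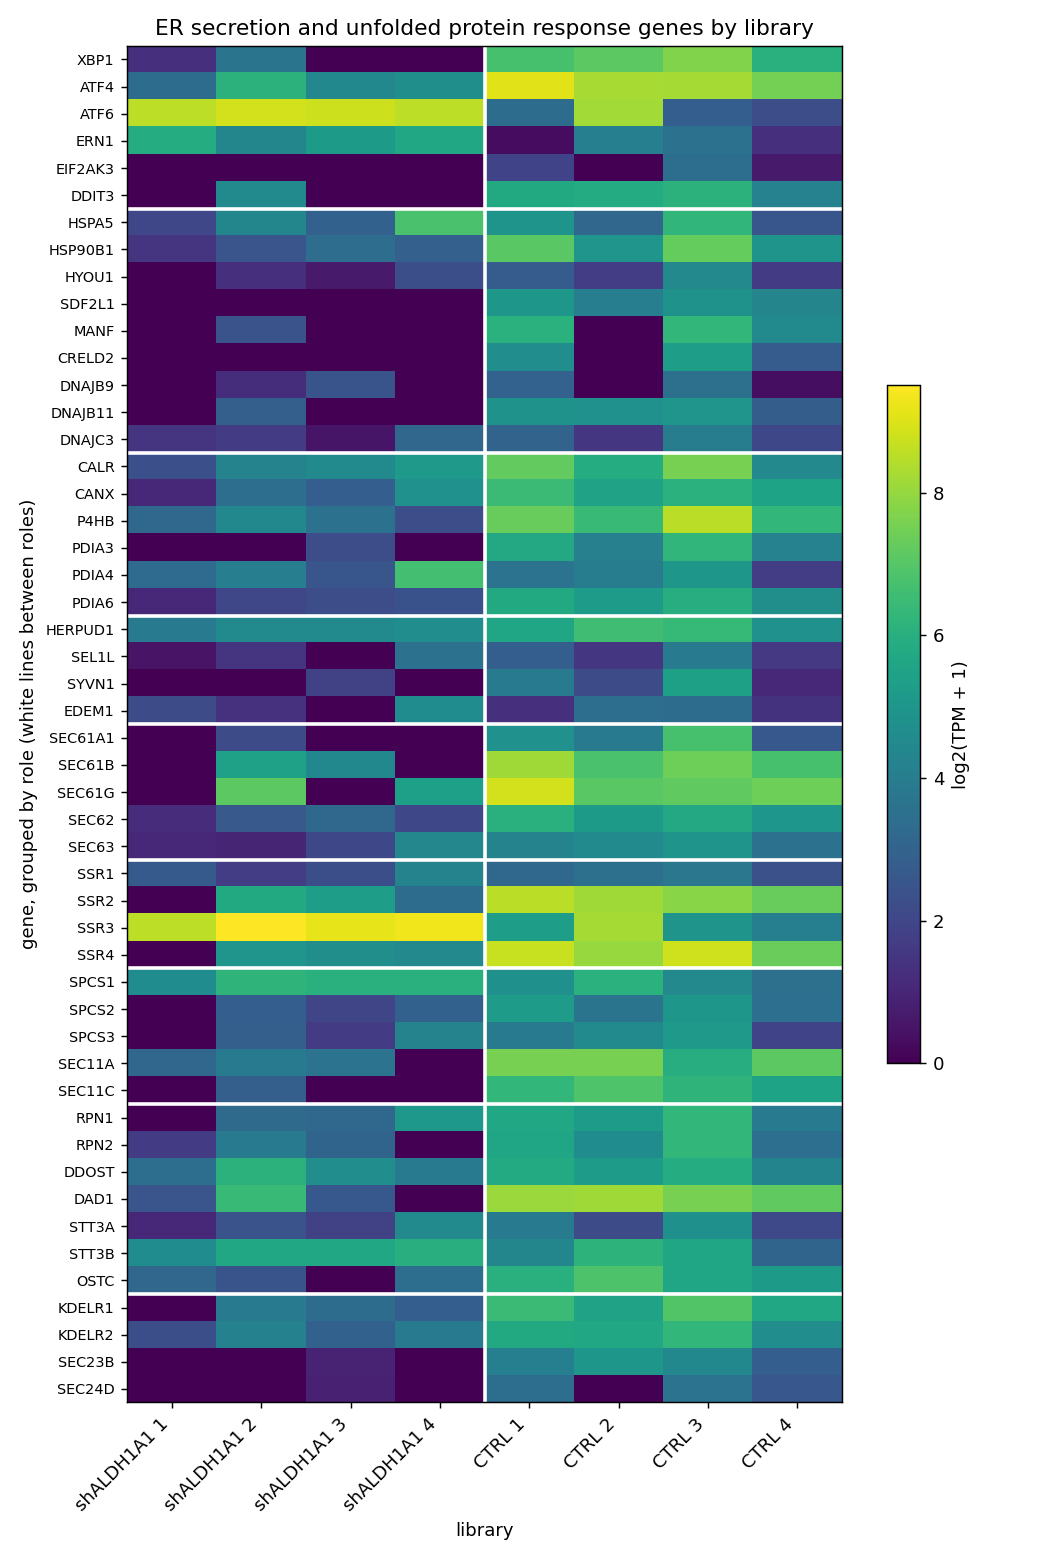
Level of the 50 genes in each library as log2(TPM + 1), where TPM is the deposited abundance scaled by transcript length and library, with shALDH1A1 libraries left of CTRL libraries and white lines between roles. Most genes are dark on the left and bright on the right, while ATF6 and SSR3 are bright in the 4 shALDH1A1 libraries and in CTRL replicate 2.

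Most of the 50 genes were near absent from the shALDH1A1 libraries. Summed over the 4 shALDH1A1 libraries, 39 genes had under 50 counts, 9 had at most 3 and 3 had 0, while no gene was at 0 in all CTRL libraries. Low counts were general in shALDH1A1 libraries, where only 2752 to 3963 of all 18664 genes had at least 10 counts per library. The share of all genes under the cut-offs used here is not given. All 50 genes made up 0.121 to 0.186% of all counts in shALDH1A1 libraries, against 0.234 to 0.545% in CTRL libraries. ATF6 and SSR3 had the most counts in shALDH1A1 libraries and were set aside for that. Without them the genes made up 0.0218, 0.0377, 0.031 and 0.0649% in shALDH1A1 libraries, against 0.492, 0.156, 0.533 and 0.225% in CTRL libraries. The groups overlapped in neither share, though setting genes aside on their shALDH1A1 counts widens the second gap by design. ATF6 and SSR3 alone took 0.0988 to 0.148% in shALDH1A1 libraries, more than all the other members there, against 0.0196, 0.118, 0.012 and 0.00929% in CTRL libraries 1 to 4. By TPM, 26 of the 50 genes were highest in CTRL replicate 3, 8 in CTRL replicate 1 and 7 in CTRL replicate 2, while 9 were highest in an shALDH1A1 library (4 each in replicates 2 and 4 and 1 in replicate 1).

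With edgeR's quasi-likelihood test and TMM factors, which set the libraries on a common scale, 42 of the 50 genes had enough counts. Of these, 20 were lower in shALDH1A1 cells at an adjusted p under 0.05, 0 were higher and 22 did not pass. The share lower was 47.6% of the 42 genes, beside 33.0% of all 7971 tested genes, and 2.60% of all tested genes were higher. At an unadjusted p under 0.05, 29 of the 42 were lower and 1, ERN1, was higher, and DESeq2 and limma on log2(TPM + 1) each called 3 higher (ATF6, SSR3 and ERN1). At the thresholds of the study's methods (a log2 fold change over 1 and an adjusted p under 0.001), 0 of the 42 passed, beside 4.89% of all tested genes that were lower, and with DESeq2 27 did, beside 39.9% of all tested genes lower and 3.60% higher at these thresholds. In 27 of the 42 genes, or 64.3%, every shALDH1A1 library lay below every CTRL library on the TMM scale, beside 36.0% of all tested genes, and in 0 of them did every shALDH1A1 library lie above, beside 1.88%. A gene enters the test on its counts in as few as 4 libraries, so a gene near 0 in shALDH1A1 libraries could enter through CTRL libraries alone, and these counts over tested genes lend no further weight to the difference. Leaving out CTRL replicate 2 gave 37 lower genes of 47 and 3 higher (ATF6, SSR3 and ERN1), or 78.7% and 6.38%, beside 60.4% and 17.3% of all tested genes. Without CTRL replicate 4 the number lower was 31 of 42, or 73.8%, beside 44% of all tested genes, and without CTRL replicate 1 it was 13 of 42, or 31%, beside 24.6%. It was 12 of 47 without shALDH1A1 replicate 1, or 25.5%, beside 22.5% of all tested genes, and 11 of 47 without shALDH1A1 replicate 4, or 23.4%, a share no larger than the 23.9% of all tested genes.

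Of the 20 calls, 7 held with any 1 library left out: SEC23B, XBP1, PDIA3, PDIA6, SEC61A1, SEC11C and OSTC. The other 13 were lost without at least 1 library, among them DDIT3, where 5 libraries each took the call away when left out, and SEL1L, where 6 did. SEC23B alone of the 20 was lower under all 18 alternatives, and SEL1L was lower under 6 of them.

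The scale of the libraries set how many genes were called and in which direction. The median log2 fold change was -2.65 over the 42 genes and -1.45 over all tested genes, a difference of -1.21. Scaled to 30 genes that every cell uses, the medians were 0.22 and 1.86, and 1 of the 42 genes (SEC23B) was lower and 7 higher, or 2.38% and 16.7%, beside 5.29% and 40.6% of all tested genes. Those 7 were ATF6, ERN1, SSR3, SPCS1, PDIA4, EDEM1 and STT3B. With library sizes and TMM factors taken without the genes of 7SL-like sequence, a scale added after the data had been seen, the medians were -1.22 and -0.03, and 6 genes were lower and 1 higher, or 14.3% and 2.38%, beside 15.9% and 16.4% of all tested genes. The 6 were XBP1, PDIA3, PDIA6, SEC61A1, SEC11C and SEC23B, and the higher gene was ERN1. DESeq2 called 33 genes lower and 3 higher, or 78.6% and 7.14%, beside 55.8% and 16.6% of all tested genes. Over every scaling, tool and left-out library that was run, the median of those of the 50 genes that were tested (42 to 50 of them) lay 0.57 to 1.71 below that of all tested genes.

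**Figure D2:**
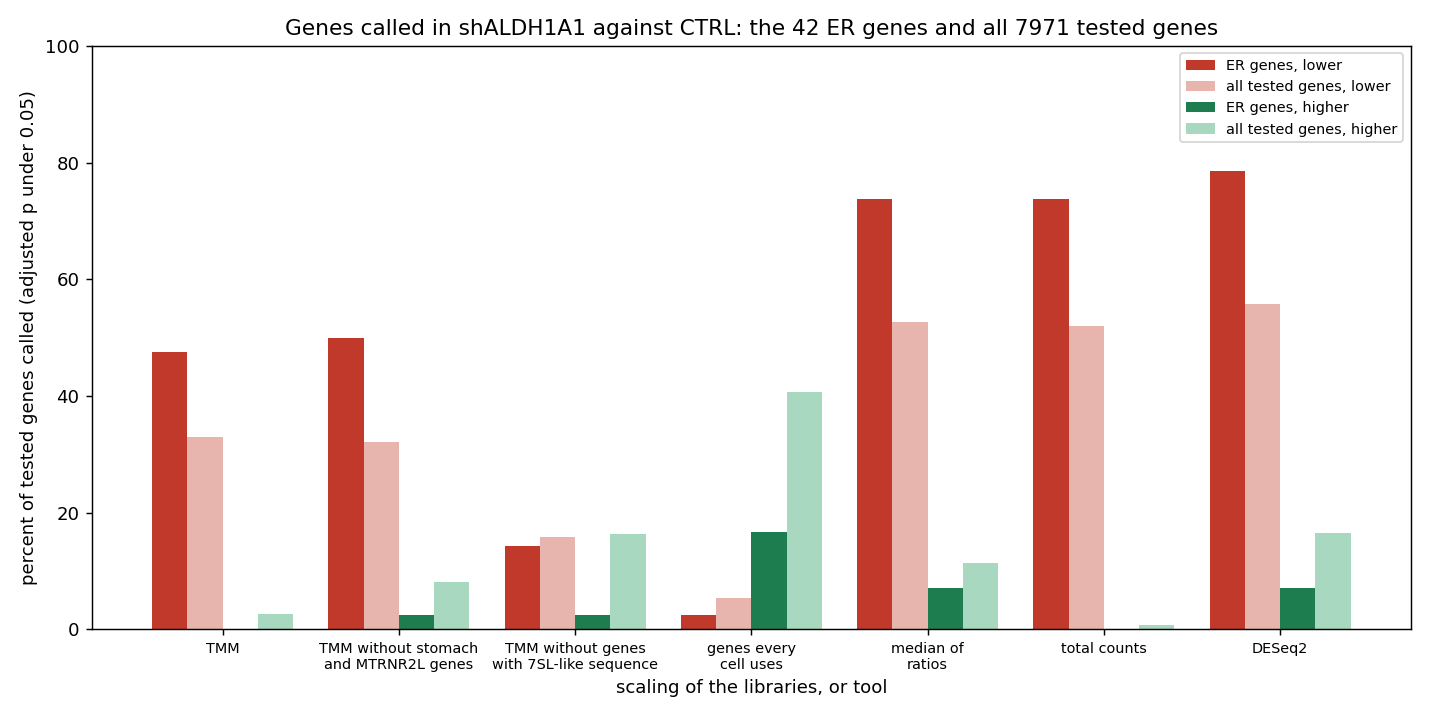
Percent of tested genes called lower (red shades) and higher (green shades) in shALDH1A1 against CTRL at an adjusted p under 0.05, for the 42 ER genes (dark bars) and all 7971 tested genes (light bars), under 7 ways of scaling or testing. The share of the 42 genes called lower runs between 2.38% scaled to genes every cell uses and 78.6% with DESeq2.

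**Figure D3:**
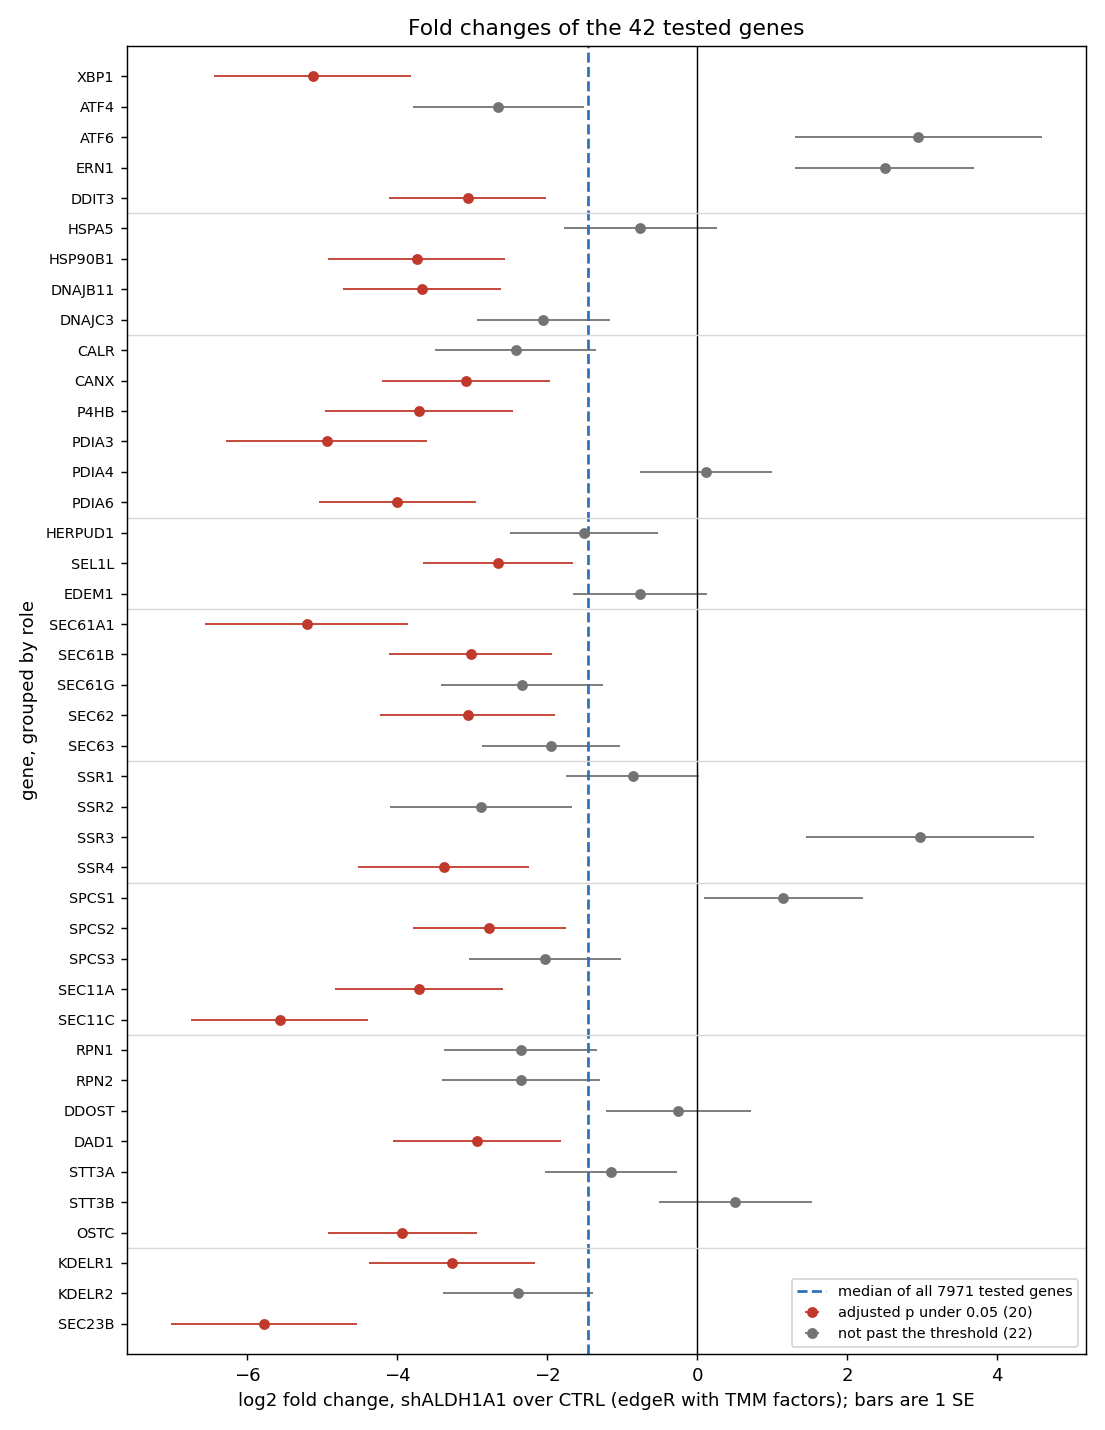
Log2 fold change of shALDH1A1 over CTRL with 1 SE for the 42 tested genes, grouped by role, red where the adjusted p was under 0.05, with a dashed line at the median of all tested genes. On this TMM scale 31 genes lie left of the dashed line and 11 right of it, and 6 lie right of 0.

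Among the sensors and transcription factors, XBP1 and DDIT3 were lower, EIF2AK3 was absent from shALDH1A1 libraries, and ATF6 and ERN1 had more counts in shALDH1A1 libraries without passing the test. XBP1 (chr22:29190543-29196585, GRCh37, minus strand) had 1, 6, 0 and 0 counts in shALDH1A1 libraries, against 335, 23, 1009 and 173 in CTRL libraries. The groups did not overlap, although the library with most in shALDH1A1 held 6 counts and the one with least in CTRL held 23. Its mean level was 3.23 ± 5.56 TPM in shALDH1A1 cells and 129 ± 60.9 TPM in CTRL cells (SD, n = 4 each). The log2 fold change of XBP1 was -5.13 (SE 1.31, adjusted p = 0.00399, edgeR), with an exact two-sided permutation p of 0.0286, the smallest that 4 against 4 libraries allow. With 1 library left out it ran between -7.67 (adjusted p = 0.00542, without shALDH1A1 replicate 2) and -4.41 (adjusted p = 0.0197, without shALDH1A1 replicate 4). The adjusted p from edgeR was 0.0757 scaled to genes every cell uses, with a log2 fold change of -2.70. The study singled out XBP1 with these libraries in view, so its direction is not independent evidence.

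The 2 XBP1 transcripts of the table are the spliced form NM_001079539.1, which lacks the 26 bases shown above, and the unspliced form NM_005080.3. The unspliced form had 0 counts in each of the 4 shALDH1A1 libraries, against 284, 19.5, 983 and 173 in CTRL libraries. To the spliced form were assigned 1, 6, 0 and 0 counts in shALDH1A1 libraries, against 51.4, 3.52, 25.6 and 0 in CTRL libraries. The spliced share was thus 100% in the 2 shALDH1A1 libraries with any XBP1 count, which held 7 counts together, against 15.3, 15.3, 2.54 and 0% in CTRL libraries 1 to 4. These are estimated counts that RSEM divides among transcripts of nearly equal sequence, and the shALDH1A1 share rests on 2 libraries, so the difference in share was not tested.

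DDIT3, the CHOP factor of prolonged ER stress, had 0, 5, 0 and 0 counts in shALDH1A1 libraries, against 78, 4, 154 and 20 in CTRL libraries. All but 1 of the shALDH1A1 libraries were at 0, and the log2 fold change was -3.06 (SE 1.05, adjusted p = 0.0253, edgeR). The call was lost without shALDH1A1 replicate 1 (adjusted p = 0.116), 3 (0.0922) or 4 (0.124), without CTRL replicate 1 (0.0526) or 3 (0.0622), and on 2 other library scales (0.133 and 0.638). ATF4, which acts downstream of PERK, had 14, 30, 16 and 21 counts in shALDH1A1 libraries, against 1302, 42, 1142 and 362 in CTRL libraries. Its libraries did not overlap between the groups, and the log2 fold change of -2.65 (SE 1.14, adjusted p = 0.0661, edgeR) missed the threshold. EIF2AK3, the PERK kinase, had 0 counts in all shALDH1A1 libraries and 22, 0, 121 and 4 in CTRL libraries, too few for the test. At 3 counts over the shALDH1A1 libraries as the floor, its level on the TMM scale was at least 11.2-fold lower in shALDH1A1 cells, and at least 3.87-fold lower without CTRL replicate 3.

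ATF6 (chr1:161736088-161947364) had 1223, 1099, 1275 and 329 counts in shALDH1A1 libraries, against 138, 218, 137 and 46 in CTRL libraries. CTRL replicate 2, the shallowest library, stood apart with 291 TPM beside 9.34, 6.18 and 3.73 TPM in the other CTRL libraries and 375 to 460 TPM in shALDH1A1 libraries. The log2 fold change was 2.95 (SE 1.65, adjusted p = 0.142, edgeR) with all libraries, and 5.15 (adjusted p = 1.06e-05, edgeR) without CTRL replicate 2. ERN1, the IRE1 kinase and nuclease that splices XBP1, had 218, 56, 117 and 54 counts in shALDH1A1 libraries, against 5, 18, 256 and 19 in CTRL libraries. The groups overlapped in counts through CTRL replicate 3 and on the TMM scale through CTRL replicate 2. They did not overlap in TPM, at 19.8 to 58.6 in the shALDH1A1 group and 0.25 to 16.4 in the CTRL group. The log2 fold change was 2.50 (SE 1.20, adjusted p = 0.0953, edgeR), and it was past the threshold in several alternatives named above. Transcripts of ATF6 and ERN1 hold 148 and 215 bases of 7SL-like sequence. XBP1, ATF4, EIF2AK3 and DDIT3 hold 0.

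The luminal chaperones keep new proteins soluble in the ER. Of 9 genes, 4 were tested and 2 of these, HSP90B1 and DNAJB11, were lower, or 50%, beside 33.0% of all tested genes. HSP90B1 (GRP94, the Hsp90 of the ER) had 2, 4, 10 and 2 counts in shALDH1A1 libraries, against 682, 8, 1188 and 124 in CTRL libraries. Its mean was 5.65 ± 3.30 TPM in shALDH1A1 cells and 86.0 ± 65.6 TPM in CTRL cells (SD, n = 4 each), with a log2 fold change of -3.74 (SE 1.18, adjusted p = 0.016, edgeR). DNAJB11, a co-chaperone of BiP, had 0, 3, 0 and 0 counts in shALDH1A1 libraries, against 80, 4, 129 and 14 in CTRL libraries. On the TMM scale CTRL cells held 17.3 times the shALDH1A1 level of DNAJB11 (95% exact interval 5.84 to 84.4, counting error only), with an adjusted p of 0.0088 from edgeR.

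HSPA5, the BiP chaperone that binds all 3 sensors at rest, did not separate the groups. It had 5, 24, 10 and 48 counts in shALDH1A1 libraries, against 219, 3, 853 and 30 in CTRL libraries. In TPM shALDH1A1 replicate 4 was highest with 108, above the 75.6 of CTRL replicate 3, and the log2 fold change was -0.76 (SE 1.02, adjusted p = 0.529, edgeR). DNAJC3, the p58IPK co-chaperone, had 4, 4, 1 and 5 counts in shALDH1A1 libraries, against 77, 1, 254 and 28 in CTRL libraries, with a log2 fold change of -2.05 (SE 0.89, adjusted p = 0.0688, edgeR). HYOU1, SDF2L1, MANF, CRELD2 and DNAJB9 had too few counts for the test, with at most 5 counts each over the shALDH1A1 libraries. On the TMM scale HYOU1, MANF, CRELD2 and DNAJB9 overlapped between the groups. DNAJB9 was at 1.47 ± 2.13 TPM in shALDH1A1 cells and 4.46 ± 5.19 TPM in CTRL cells (SD, n = 4 each). SDF2L1 and CRELD2 were at 0 in every shALDH1A1 library, so that on the TMM scale SDF2L1 was at least 8.14-fold lower there and CRELD2 at least 16.4-fold, or at least 10.6-fold without CTRL replicate 3. These bounds rest on summed counts, and CRELD2 had 59, 0, 144 and 12 counts in CTRL libraries, so CTRL replicate 2 was at 0 too.

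The lectin chaperones and the protein disulfide isomerases, which fold glycoproteins and form disulfide bonds, had 4 of 6 genes lower. The 4 were PDIA3, PDIA6, P4HB and CANX. This was 66.7%, with a median log2 fold change of -3.39, beside 33.0% and -1.45 over all tested genes. PDIA6 had 1, 2, 3 and 1 counts in shALDH1A1 libraries, against 220, 8, 369 and 85 in CTRL libraries, averaged 3.04 ± 1.38 TPM in shALDH1A1 cells and 43.6 ± 15.5 TPM in CTRL cells (SD, n = 4 each), and was lower at an adjusted p of 0.00487 (edgeR). PDIA3 (ERp57, the partner of calnexin) had 0, 0, 5 and 0 counts in shALDH1A1 libraries, against 367, 6, 802 and 102 in CTRL libraries, and a log2 fold change of -4.94 (SE 1.34, adjusted p = 0.00603, edgeR). P4HB, the classical protein disulfide isomerase, had 8, 15, 10 and 1 counts in shALDH1A1 libraries, against 702, 20, 2441 and 290 in CTRL libraries, and a log2 fold change of -3.71 (SE 1.25, adjusted p = 0.0229, edgeR). None of the 3 overlapped between the groups on the TMM scale. CALR did not pass with a log2 fold change of -2.42 (adjusted p = 0.0729, edgeR), nor did PDIA4 with 0.12 (adjusted p = 0.911). Over its libraries PDIA4 had 53.0 counts on transcript NM_001371245.1 in shALDH1A1 cells and 12.5 in CTRL cells, while NM_004911.5 had 5.0 in shALDH1A1 cells and 226.7 in CTRL cells.

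Genes with an ERSE in the promoter did not all behave alike. Of the 7, XBP1, HSP90B1, CANX and PDIA6 were lower, HSPA5 and CALR did not pass and CRELD2 was not tested. Beside them, 47.6% of the 42 tested genes and 33.0% of all tested genes were lower. Of 18 alternatives, the call was lost in 1 for XBP1, 1 for PDIA6, 5 for HSP90B1 and 7 for CANX. Of the ERSE-II genes, HERPUD1 did not pass, while HYOU1 and SDF2L1 were not tested. With such counts the promoter element was not tested as a source of the difference.

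In ER-associated degradation, which exports misfolded proteins to the proteasome, 1 of 3 tested genes was lower, a share close to that of all tested genes. SEL1L, the scaffold of the HRD1 ligase, had 1, 3, 0 and 7 counts in shALDH1A1 libraries, against 97, 1, 322 and 26 in CTRL libraries, and a log2 fold change of -2.65 (SE 1.00, adjusted p = 0.0392, edgeR). Its groups overlapped through CTRL replicate 2, and the call was lost in 12 of 18 alternatives, among them the leaving out of any 1 shALDH1A1 library (adjusted p 0.0539 to 0.122, edgeR), of CTRL replicate 1 (0.0678) or of CTRL replicate 3 (0.137), and both limma settings (0.256 and 0.315). HERPUD1, which recruits the ligase's substrates, had 15, 19, 23 and 8 counts in shALDH1A1 libraries, against 253, 26, 648 and 120 in CTRL libraries. It kept 20.7 ± 4.86 TPM in shALDH1A1 cells, beside 62.6 ± 30.7 TPM in CTRL cells (SD, n = 4 each), and the log2 fold change was -1.51 (SE 0.99, adjusted p = 0.202, edgeR). EDEM1, a lectin that hands over misfolded glycoproteins, had 9, 3, 0 and 17 counts in shALDH1A1 libraries, against 18, 6, 170 and 16 in CTRL libraries, with overlapping groups (adjusted p = 0.473, edgeR). SYVN1, the HRD1 ligase itself, had 3 counts over the shALDH1A1 libraries and was not tested.

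Parts of the Sec61 translocon, the channel into the ER, were lower in 3 of 5 genes. This was 60%, with a median log2 fold change of -3.02, beside 33.0% and -1.45 over all tested genes. SEC61A1, the pore subunit, had 0, 4, 0 and 0 counts in shALDH1A1 libraries, against 184, 5, 1088 and 29 in CTRL libraries. All of its shALDH1A1 counts lay in replicate 2, and the log2 fold change was -5.21 (SE 1.36, adjusted p = 0.00479, edgeR). SEC61B had 0, 5, 3 and 0 counts in shALDH1A1 libraries, against 187, 4, 167 and 59 in CTRL libraries, and a log2 fold change of -3.02 (SE 1.09, adjusted p = 0.0319, edgeR). SEC62, which serves entry after translation, had 3, 9, 20 and 2 counts in shALDH1A1 libraries, against 760, 21, 919 and 298 in CTRL libraries, and a log2 fold change of -3.06 (SE 1.17, adjusted p = 0.0419, edgeR). SEC61G and SEC63 were at -2.34 and -1.95 and did not pass.

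The TRAP complex sits at the translocon and helps some signal peptides open it, and 1 of its 4 genes, SSR4, was lower, or 25%, beside 33.0% of all tested genes. SSR4 had 0, 4, 8 and 1 counts in shALDH1A1 libraries, against 324, 11, 568 and 103 in CTRL libraries, and a log2 fold change of -3.38 (SE 1.14, adjusted p = 0.0235, edgeR). SSR2 had 0, 16, 14 and 1 counts in shALDH1A1 libraries, against 645, 26, 596 and 231 in CTRL libraries, and missed the threshold at -2.88 (SE 1.21, adjusted p = 0.0621, edgeR). SSR3 had 662, 960, 927 and 304 counts in shALDH1A1 libraries, against 316, 126, 359 and 109 in CTRL libraries. As for ATF6, CTRL replicate 2 stood with the shALDH1A1 libraries at 302 TPM, beside 38.9, 29.3 and 16.2 TPM in the other CTRL libraries and 372 to 726 TPM in shALDH1A1 libraries. Its log2 fold change was 2.97 (SE 1.52, adjusted p = 0.114, edgeR), and 3.42 (adjusted p = 0.000151, edgeR) without CTRL replicate 2. The transcript NM_007107.5 of SSR3 had 827.4 counts over the shALDH1A1 libraries and 666.6 over the CTRL libraries, while the other 3 transcripts had sums of 607.1 to 717.3 in the shALDH1A1 group and 60.4 to 107.5 in the CTRL group. SSR1 was at -0.86 and did not pass.

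**Figure D4:**
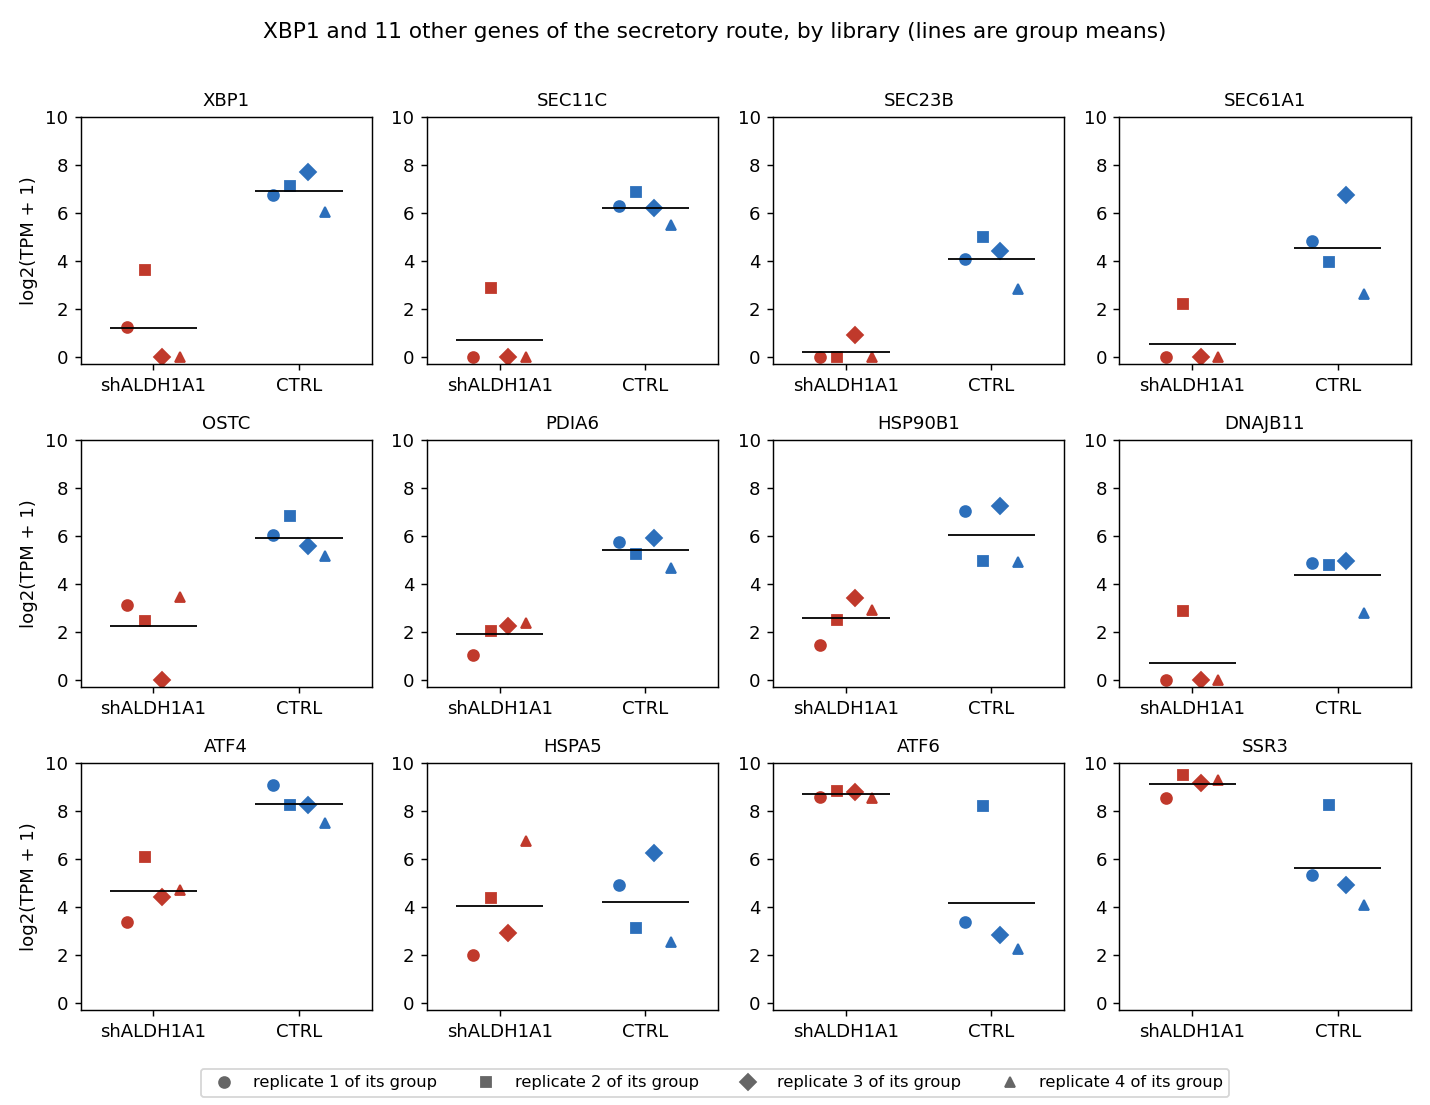
Level of XBP1 and 11 other genes of the secretory route in each library as log2(TPM + 1), with shALDH1A1 (red) left of CTRL (blue), symbols for replicates and lines at group means. XBP1 and SEC11C separate the groups, HSPA5 does not, and CTRL replicate 2 (square) lies far above the other CTRL libraries for ATF6 and SSR3.

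Signal peptidase removes the signal peptide, and 3 of its 5 genes were lower, or 60%, beside 33.0% of all tested genes. SEC11C, a catalytic subunit, had 0, 1, 0 and 0 counts in shALDH1A1 libraries, against 86, 7, 118 and 34 in CTRL libraries. CTRL cells held 55.9 times the shALDH1A1 level of SEC11C on the TMM scale (95% exact interval 9.94 to 2220, counting error only, adjusted p = 0.00101 from edgeR). SEC11A, the other catalytic subunit, had 3, 5, 4 and 0 counts in shALDH1A1 libraries, against 330, 17, 159 and 197 in CTRL libraries, and a log2 fold change of -3.71 (SE 1.12, adjusted p = 0.0128, edgeR). SPCS2 had 0, 5, 3 and 2 counts in shALDH1A1 libraries, against 187, 3, 241 and 42 in CTRL libraries, and a log2 fold change of -2.77 (SE 1.02, adjusted p = 0.0357, edgeR). Both catalytic subunits were thus lower, while the small subunit SPCS1 had 37, 85, 93 and 28 counts in shALDH1A1 libraries, against 187, 25, 230 and 63 in CTRL libraries. SPCS1 overlapped between the groups, with a log2 fold change of 1.15 (SE 1.06, adjusted p = 0.357, edgeR), and its transcripts hold 498 bases of 7SL-like sequence, the most of the 50 genes. SPCS3 was at -2.03 and did not pass.

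The oligosaccharyltransferase, which attaches sugar chains to asparagines, had 2 of 7 genes lower, or 28.6%, which is under the 33.0% of all tested genes. OSTC had 3, 1, 0 and 1 counts in shALDH1A1 libraries, against 107, 10, 112 and 49 in CTRL libraries, and a log2 fold change of -3.93 (SE 1.00, adjusted p = 0.00395, edgeR). DAD1 had 1, 13, 1 and 0 counts in shALDH1A1 libraries, against 247, 14, 253 and 109 in CTRL libraries, and a log2 fold change of -2.93 (SE 1.12, adjusted p = 0.0409, edgeR). RPN1 had 0, 6, 7 and 8 counts in shALDH1A1 libraries, against 204, 8, 485 and 47 in CTRL libraries, and missed the threshold (adjusted p = 0.0705, edgeR). The catalytic subunits did not pass either, with STT3A at -1.15 (SE 0.88) and STT3B at 0.51 (SE 1.02) on the log2 scale. STT3B counts lay on different transcripts in the groups: XM_011533465.1 had 177.0 over the shALDH1A1 libraries and 83.0 over the CTRL libraries, and XM_017005858.1 had 6.0 in shALDH1A1 libraries and 630.3 in CTRL libraries. RPN2 and DDOST were at -2.35 and -0.25.

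For retrieval and the COPII coat, which return resident proteins and carry cargo out, 2 of 3 tested genes were lower. This was 66.7%, beside 33.0% of all tested genes. SEC23B, a COPII coat protein, had 0, 0, 1 and 0 counts in shALDH1A1 libraries, against 91, 9, 177 and 29 in CTRL libraries. CTRL cells held 69.8 times its shALDH1A1 level on the TMM scale (95% exact interval 12.4 to 2770, counting error only, adjusted p = 0.00111 from edgeR), and it was the only 1 of the 42 genes that stayed lower when libraries were scaled to genes every cell uses. KDELR1, a receptor that returns escaped chaperones, had 0, 6, 5 and 1 counts in shALDH1A1 libraries, against 232, 6, 487 and 111 in CTRL libraries, and a log2 fold change of -3.27 (SE 1.11, adjusted p = 0.0243, edgeR). KDELR2 had 4, 14, 7 and 4 counts in shALDH1A1 libraries, against 276, 13, 600 and 105 in CTRL libraries, and missed the threshold at -2.39 (SE 1.00, adjusted p = 0.0612, edgeR). SEC24D had 1 count over the shALDH1A1 libraries and 72, 0, 118 and 31 in CTRL libraries, and was not tested.

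XBP1 was set beside a list of 17 genes known as its targets in secretion, 16 of them among the 50. Of these, 15 were tested, 9, or 60%, were lower and 0 higher, with a median log2 fold change of -3.02, beside 33.0% of all tested genes lower and their median of -1.45. The share lower was 47.6% over the 42 tested genes of the 50. It was 58.3 and 63.6% in the targeting and coat gene lists given below. Whether those lists hold XBP1 targets of their own was not checked. Of the ATF6 branch list 2 of 6 tested genes were lower (HSP90B1 and SEL1L, median -1.97), a share of 33.3%. Of the PERK and ATF4 branch list 1 of 2 tested genes was lower (DDIT3). The branches were not tested against each other.

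Further genes of the same route, 86 listed by role and not among the 50, were counted beside them, and 64 had enough counts. Of these, 33, or 51.6%, were lower and 0 higher, with a median log2 fold change of -2.67, beside 33.0% and a median of -1.45 over all tested genes. A positive log2 fold change was found for 12 of the 64, none of them past the threshold, the largest being UBE2G2 at 3.40 (adjusted p = 0.0958, edgeR) and SAR1A at 3.28 (adjusted p = 0.0989), both named for their values. Of further regulators 3 of 8, or 37.5%, were lower, among them TMBIM6, which damps IRE1, with 0, 13, 4 and 3 counts in shALDH1A1 libraries, against 638, 18, 2398 and 189 in CTRL libraries (adjusted p = 0.0152, edgeR). Further folding and quality control genes were lower in 9 of 22, or 40.9%. Both shares are close to that of all tested genes. DERL1, of the retrotranslocation complex, was at 0 in every shALDH1A1 library and had 59, 2, 149 and 43 counts in CTRL libraries, at least 19.2-fold lower in shALDH1A1 cells on the TMM scale. VCP, the ATPase that pulls proteins out of the membrane, had 2 counts over the shALDH1A1 libraries, against 323, 6, 399 and 87 in CTRL libraries (adjusted p = 0.00119, edgeR).

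Targeting and membrane insertion genes were lower in 7 of 12, or 58.3%, with a median of -3.40. SRP54, the signal-peptide-binding subunit of the signal recognition particle, was at 0 in every shALDH1A1 library and had 59, 4, 88 and 48 counts in CTRL libraries, at least 15.1-fold lower in shALDH1A1 cells. SRP9, which binds the Alu domain of 7SL RNA, had 1, 6, 5 and 2 counts in shALDH1A1 libraries, against 580, 28, 415 and 355 in CTRL libraries (adjusted p = 0.00728, edgeR). Coat and cargo receptor genes were lower in 14 of 22, or 63.6%, with a median of -3.09. SEC16A, the scaffold of ER exit sites, had 0, 2, 0 and 0 counts in shALDH1A1 libraries, against 97, 3, 629 and 55 in CTRL libraries (adjusted p = 0.00199, edgeR). LMAN1, a cargo receptor, had 2, 2, 0 and 0 counts in shALDH1A1 libraries, against 155, 2, 395 and 81 in CTRL libraries (adjusted p = 0.00309, edgeR).

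The 7SL-like sequence moved with the fold changes. Of the 50 genes, 20 have transcripts with over 50 such bases, all of them tested, and 6 of these, or 30%, were lower, beside 13.5% of the 3446 tested genes with over 50 bases. Their median log2 fold change was -1.99, beside 0.69 in that class. Of the other 30 genes 22 were tested and 14, or 63.6%, were lower, beside 48.4% of the 4422 tested genes with at most 50 bases. Their median was -3.04, beside -2.56 in that class. Of the 6 genes with a positive log2 fold change, ATF6, ERN1, SSR3 and SPCS1 hold over 50 bases, and STT3B and PDIA4 hold 0 in the GENCODE transcripts searched. The RefSeq transcripts with most of the shALDH1A1 counts of STT3B and PDIA4 (XM_011533465.1 and NM_001371245.1) were not themselves searched. CTRL replicate 2, the CTRL library highest for ATF6 and SSR3, was also the CTRL library with the largest share of counts on genes with 7SL-like sequence (73.3%). The part of that sequence in these values was not tested.

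**Figure D5:**
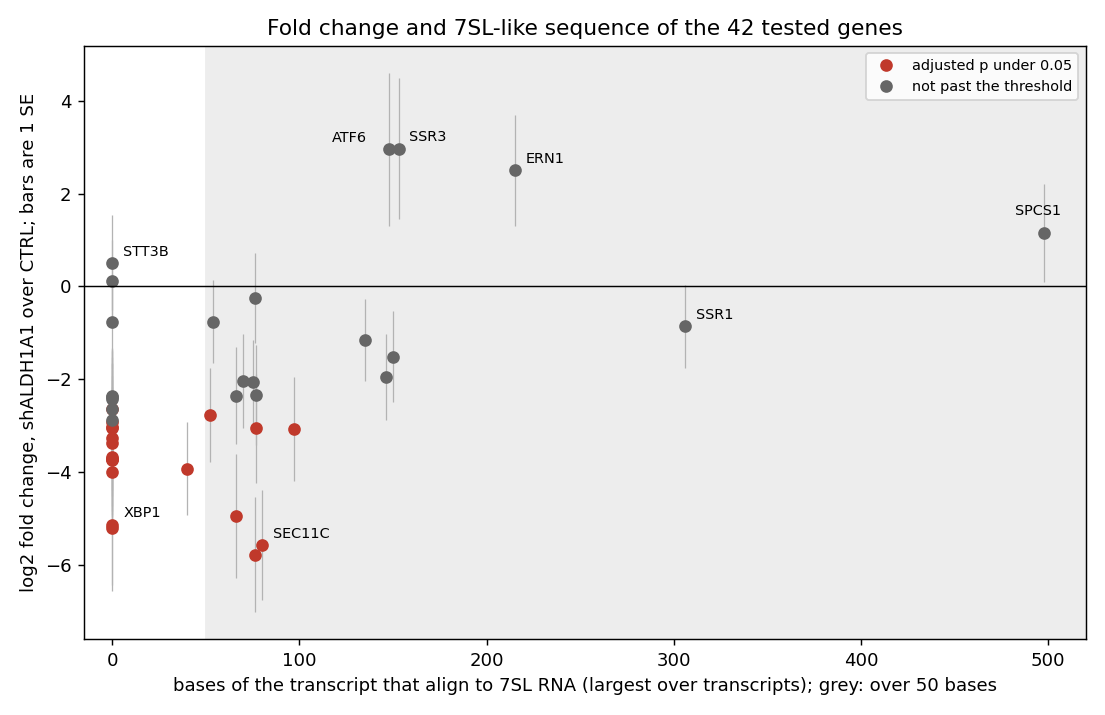
Log2 fold change of shALDH1A1 over CTRL with 1 SE for the 42 tested genes against the number of transcript bases that align to 7SL RNA, with the range over 50 bases in grey and genes at an adjusted p under 0.05 in red. ATF6, SSR3, ERN1 and SPCS1 lie above 0 in the grey range, and XBP1 lies at -5.13 with 0 such bases.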

How the data were processed

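RNA-seq of 8 HT29 libraries was analysed, 4 shALDH1A1 and 4 CTRL. The authors deposited expected counts and TPM for 84798 RefSeq transcripts. Per the study's methods, the authors used CASAVA V1.6, FASTQC V0.11.5, HISAT on hg19 and RSEM, while Bowtie2, BWA and GRCh38.p13 stand in the submitters' processing notes. The deposited expected counts were taken as not normalized, which was not tested, and 64.7% of their non-zero values are not whole at a tolerance of 0.001. The deposited TPM values are per transcript length and library.

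Expected counts were summed per gene symbol, rounded and tested with edgeR 4.0.16 in R 4.3.3 (filterByExpr with a minimum count of 10 and total of 15, TMM factors and the two-sided quasi-likelihood test, with p-values adjusted over 7971 genes by the Benjamini-Hochberg method). SE is the absolute log2 fold change over the square root of F. Alternatives were other library scales, DESeq2 1.42.0, limma 3.58.1 on log2(TPM + 1) and log2(TPM + 0.1), no filter, a replicate block and each library left out. Replicate numbers did not pair the libraries. 7SL-like bases are those of GENCODE transcripts aligned to RN7SL2 by blastn 2.17.0 (e-value 1e-5). Gene positions are those of GRCh37. Data were simulated for this comparison with 50 genes at each size of change and 5256 unchanged genes. On them edgeR called 1 at a log2 change of 1, 3 at 2, 19 at 4 and 41 at 6. Of the 5256 unchanged genes it called 3. The rate of false calls with as many lower genes as in these data (33.0% of all tested genes) was not tested. As PCR copies were not marked by molecular identifiers, intervals and the floor of 3 counts cover only the error of counting.

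The 50 genes and all lists were chosen with earlier results of these data known. Counts in every library are given for the sensors and factors, the 3 genes of each role with the smallest p and the 4 genes with most shALDH1A1 counts; other genes are summarised or named as examples with values seen.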

Additional observations from a re-analysis of the deposited data

Results flagged for a closer look

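In 8 of 62 groups of 4 libraries, a single library stood apart from the other 3 on the log2(TMM-scaled CPM + 1) scale, where chance gives about 5% of groups with continuous values. In 6 of the 8 the other 3 libraries were at 0, so that any count in 1 library sets it apart and that chance rate does not apply. In CTRL libraries this was replicate 2 for ATF6, at 9.43 beside 4.35 to 4.85 in the others, and for SSR3, at 8.64 beside 5.7 to 6.02. In shALDH1A1 libraries, replicate 2 alone held counts of DDIT3 (3.26), DNAJB11 (2.62), SEC61A1 (2.97) and SEC11C (1.44), and replicate 3 alone held counts of PDIA3 (3.49) and SEC23B (1.6). SEC11C and SEC23B rest on 1 count each in that library.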

How the results depend on the processing

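Of 20 genes lower in shALDH1A1 cells with TMM factors, the number was 31 with median-of-ratios factors, 31 with total counts, 33 with DESeq2, 38 without the filter (50 tested), 6 scaled without genes of 7SL-like sequence, 1 scaled to genes every cell uses and 8 at an adjusted p under 0.01; leaving out 1 library gave 11 to 37. All tested genes were lower in 52.6% with median-of-ratios factors, 52% with total counts, 55.8% with DESeq2, 39.6% without the filter and 22.5 to 60.4% with 1 library left out, and the 50 genes stood below all genes scaled without genes of 7SL-like sequence (14.3% against 15.9%), scaled to genes every cell uses (2.38% against 5.29%) and without shALDH1A1 replicate 4 (23.4% against 23.9%). The number higher, 0 with TMM factors, was 3 with median-of-ratios factors, DESeq2 and either limma setting, 7 scaled to genes every cell uses, and 1 without stomach and MTRNR2L genes, without the filter, with the replicate block and without genes of 7SL-like sequence; leaving out 1 library gave 0 to 3. At the study's thresholds the count of 0 became 12 with median-of-ratios factors, 13 with total counts, 27 with DESeq2, 1 with either limma setting, 14 without the filter and 0 to 30 with 1 library left out. All tested genes were lower at these thresholds in 19.5% with median-of-ratios factors, 21.4% with total counts and 39.9% with DESeq2. They were lower in 1.14 and 1.26% with limma, 10.2% without the filter and 0 to 38.6% with 1 library left out. The 30 came without CTRL replicate 2 and were 28 lower and 2 higher genes, in a setting where 11.6% of all tested genes were higher. Of further pathway genes, 33 lower became 50 with total counts, 59 without the filter, 5 scaled to genes every cell uses, 21 without genes of 7SL-like sequence and 26 to 62 with 1 library left out. In that order the shares were 78.1%, 68.6%, 7.81%, 32.8% and 34.2 to 80.5%. Over all tested genes they were 52%, 39.6%, 5.29%, 15.9% and 22.5 to 60.4%. XBP1 kept its direction throughout, at -2.70 (adjusted p = 0.0757, edgeR) scaled to genes every cell uses and between -7.67 and -4.41 with 1 library left out. Over 30 genes given by library under the naming rule (HSPA5 and EIF2AK3 not counted), 385 of 540 values kept direction and side of the threshold. Signs turned in 9, scaled to genes every cell uses for ATF4 (0.76), DNAJC3 (1.51), SEL1L (1.00), HERPUD1 (1.35), EDEM1 (3.33), RPN1 (0.59) and KDELR2 (0.33), without genes of 7SL-like sequence for EDEM1 (0.94), and with total counts for SPCS1 (-0.54). The cause was not tested. Replicate numbers did not pair the libraries: correlations of same-numbered libraries were -0.347, -0.0673, -0.176 and 0.146, no shALDH1A1 library was closest to its own number, and the replicate block gave 20 lower and 1 higher gene (ATF6), without SEL1L (adjusted p = 0.122) and SPCS2 (0.0587) among the lower. The common dispersion was 0.853, and with under 50 counts over the shALDH1A1 libraries for 39 of 50 genes, smaller differences were not detectable.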
